A study of Arabidopsis thaliana with 6 samples.

Results

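The WRKY family is one of the largest families of transcription factors in plants, and 70 of the 32948 genes in the deposited table carried a name made of WRKY and a number. Those 70 genes were taken by that name alone and not by their expression values, though earlier results of these data were known. Wild-type (WT) seedlings of Arabidopsis thaliana grew on MS, a common medium for plant culture. The medium of the treated group held yttrium oxide nanoparticles at 20 mM, and that of the control group held none. All were sampled at 6 h. There were 3 libraries in each group, made from total RNA of seedlings, and the labels give neither seedling age nor particle size. Whether libraries of 1 group stem from different cultures is not stated, so the spread behind each p-value may be technical.

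WRKY proteins bind DNA through a domain that holds the amino acids W, R, K and Y followed by a zinc finger, and their usual site is the W-box, with the letters TTGACC or TTGACT. Many of their genes are switched on quickly by microbial patterns, wounding and oxidative stress, in part through MAP kinases, and several WRKY proteins act on the promoters of other members of the family. The family is divided into clades by the number of domains and the type of zinc finger. Clade I proteins have a pair of domains, and those of clades IIa to IIe and III have a single domain. The amino acid run W-R-K-Y occurred 2 times in the proteins encoded by 12 of the 13 clade I genes and 1 time in that of WRKY10. It also occurred 1 time in each of the other 57 proteins. Clades were taken from textbook knowledge, and this count, which cannot tell the single-domain clades apart, is the only check made of them.

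Values are the authors' deposited FPKM, a level per length of gene, scaled between libraries in a way that the labels do not give. The median-of-ratios factor of DESeq2, computed on these values, was the same in all 6 libraries (1.003), so that scaling cannot serve as an independent check. Library totals recovered from them lay between 19314683 and 23374306 reads. Of the 70 genes, 50 had a mean of at least 1 FPKM over the 6 libraries and entered the test, which was limma on log2(FPKM + 1) over all 18614 genes that passed the same filter, with a Benjamini-Hochberg adjusted p under 0.05 as the threshold. A log2 change is treated minus control on that scale, which understates the change of genes with low values. In treated seedlings 13 of the 50 tested WRKY genes were higher (26.0%, against 8.07% of all tested genes) and 11 were lower (22.0%, against 6.41%). The other 26 did not pass the threshold. On reads recovered from the FPKM, edgeR called 13 of the 50 members higher and 12 lower. Its shares over all tested genes were 8.89% higher and 7.07% lower. DESeq2 called 16 of the 50 members higher and 12 lower, beside 11.1% and 8.36% of all tested genes. The median log2 change was 0.12 over the 50 genes and 0.00087 over all tested genes. WRKY55 and WRKY71 passed the filter only through the treated libraries, since their control means were 0.318 and 0.496 FPKM.

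The groups did not overlap in 17 of the 50 tested genes upward (34.0%, against 19.0% of all tested genes) and in 15 downward (30.0%, against 16.7%). With the genes under the filter, which add WRKY41, WRKY59, WRKY42 and WRKY74, these were 19 higher and 17 lower of 70. The matching share over the whole table, with its genes under the filter, was not computed, so these counts have no comparison. Summed over the 70 genes, WRKY expression was 524, 482 and 569.9 FPKM in controls 1, 2 and 3 and 986, 697 and 761 FPKM in treated libraries 1, 2 and 3. Treated library 1 held the highest of the treated values in 11 of the 13 genes called higher (84.6%), and in 57.9% of the 1502 genes called higher over the whole table. The order of abundance within the family also differed between the groups. WRKY11 had the highest control mean and WRKY33 the highest treated mean, and the 5 most abundant members made up 30.9% of the summed control means and 42.4% of the summed treated means.

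**Figure D1:**
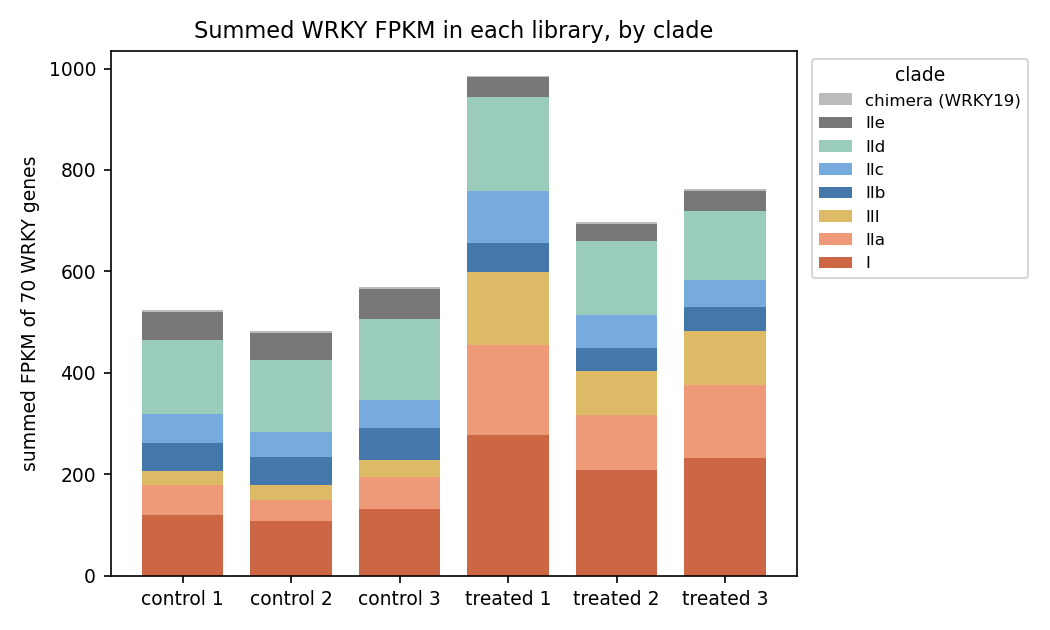
Stacked bars give the summed FPKM of the 70 WRKY genes in each of the 6 libraries, coloured by clade. The treated bars, at 697 to 986 FPKM, are all taller than the control bars, at 482 to 569.9 FPKM, and the segments of clades I, IIa and III are taller in each treated library.

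Tissue markers moved as well, and their values are given here beside the falls described below. Of 10 root markers (endodermis and root hair) 8 were tested. Of these, 7 fell (87.5%, against 6.41% of all tested genes) and none rose, and all 7 passed the filter only through the controls. The summed level of the 10 markers was 28.5 to 30.7 FPKM in controls and 1.49 to 3.23 FPKM in treated libraries. CASP1, a scaffold protein of the Casparian strip, was at 9.73, 8.71 and 9.37 FPKM in controls and 0.203, 0.202 and 0.0568 FPKM in treated libraries (log2 change -3.16, limma adjusted p = 8.08e-06). Treated values of such markers rest on few reads, 9 in all for CASP1. CASP5 was at 0 in each treated library, while MYB36, a regulator of the endodermis, was at 2.62, 1.09 and 1.04 FPKM there. MYB36 was not among the 7 markers called lower. Mesophyll markers gave no call among 4 (sums 13141 to 15095 FPKM in controls and 13162 to 15825 in treated libraries). One of 8 markers of shoot epidermis and guard cells was lower (EPF2, lost in 12 of 18 alternatives), and 2 of 7 vascular markers and all 3 tested seed storage genes fell. Calls of the vascular genes CESA8 and XCP1 were lost in 6 and 1 alternatives, and those of the seed genes CRU3 and OLEO2 in 7 each. The seed gene CRA1 (log2 change -3.15) kept its call in all 19 alternatives. CESA8, CRU3 and OLEO2 also passed the filter only through the controls. In whole seedlings fewer cells of a type and less RNA per cell cannot be told apart, and the part of root tissue in the WRKY results was not tested.

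The promoters of 4 members that rose and of 1 that fell are printed to show the W-boxes in front of them. In the 300 bases before the start, WRKY33, WRKY53, WRKY45 and WRKY15 had the most W-boxes among the members called higher. WRKY17, which fell, was added for contrast after its values were seen. The sequences are the TAIR10.1 reference of RefSeq, read 5′ to 3′ in the direction of the gene, with each TTGACC or TTGACT on either strand in capitals (on the other strand it reads GGTCAA or AGTCAA). The windows are chr2:16107935-16108234 (plus strand) for WRKY33, chr4:12393983-12394282 (minus) for WRKY53, chr3:327413-327712 (minus) for WRKY45, chr2:9924586-9924885 (plus) for WRKY15 and chr2:10439470-10439769 (minus) for WRKY17.
WRKY33: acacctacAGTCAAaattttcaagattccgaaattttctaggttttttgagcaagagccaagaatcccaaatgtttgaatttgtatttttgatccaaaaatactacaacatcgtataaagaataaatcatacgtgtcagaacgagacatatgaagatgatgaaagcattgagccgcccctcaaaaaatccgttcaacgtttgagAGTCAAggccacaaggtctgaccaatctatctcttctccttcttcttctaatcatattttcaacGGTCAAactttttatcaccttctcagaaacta
WRKY53: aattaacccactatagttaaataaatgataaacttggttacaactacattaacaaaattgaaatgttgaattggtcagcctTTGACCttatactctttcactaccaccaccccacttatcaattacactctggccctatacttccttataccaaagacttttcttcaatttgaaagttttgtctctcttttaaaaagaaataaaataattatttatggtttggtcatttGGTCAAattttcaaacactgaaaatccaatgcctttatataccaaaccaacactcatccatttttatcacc
WRKY45: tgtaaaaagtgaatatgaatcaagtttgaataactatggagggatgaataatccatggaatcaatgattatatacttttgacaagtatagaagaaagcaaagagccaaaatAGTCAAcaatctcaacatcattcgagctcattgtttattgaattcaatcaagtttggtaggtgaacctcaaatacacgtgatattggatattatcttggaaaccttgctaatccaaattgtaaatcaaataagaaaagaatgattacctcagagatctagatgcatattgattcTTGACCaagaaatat
WRKY15: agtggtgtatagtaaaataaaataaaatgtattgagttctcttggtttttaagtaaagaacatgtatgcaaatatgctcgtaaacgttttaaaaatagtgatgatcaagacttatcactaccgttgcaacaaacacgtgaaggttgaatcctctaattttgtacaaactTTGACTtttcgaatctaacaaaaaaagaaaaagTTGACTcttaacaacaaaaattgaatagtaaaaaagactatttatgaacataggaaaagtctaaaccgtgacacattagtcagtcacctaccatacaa
WRKY17: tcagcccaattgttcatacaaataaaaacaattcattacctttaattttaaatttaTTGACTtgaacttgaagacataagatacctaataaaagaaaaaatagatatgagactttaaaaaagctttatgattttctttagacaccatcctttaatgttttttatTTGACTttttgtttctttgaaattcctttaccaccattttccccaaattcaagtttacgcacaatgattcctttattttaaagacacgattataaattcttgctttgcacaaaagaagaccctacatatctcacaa

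WRKY33 had 3 W-boxes in this window, whose first bases lie 292, 96 and 32 bases before the start. WRKY53, WRKY45, WRKY15 and WRKY17 had 2 each. Members without a call reached the same numbers: WRKY30 had 3, and WRKY29 and WRKY32 had 2 each, as did WRKY41 and WRKY62 under the filter. At least 1 W-box was found in 8 of the 13 promoters of WRKY genes called higher (61.5%), in 4 of 11 of those called lower (36.4%), in 10 of 26 of those tested but not called (38.5%) and in 32.3% of the 27419 promoters of protein-coding nuclear genes. Over all genes of the table called higher or lower the shares were 38.7% and 37.3%. In the 1000 bases before the start W-boxes were present in 12 of 13 promoters of WRKY genes called higher (92.3%), in 8 of 11 of those called lower (72.7%), in 23 of 26 of those not called (88.5%) and in 67.3% of all promoters. WRKY18, WRKY40, WRKY46, WRKY70 and WRKY71 had none in the shorter window, which says only that these letters are not there. The shorter core TTGAC, which every W-box contains, was found in the shorter window in 11 of the 13 promoters of WRKY genes called higher, in 4 of 11 of those called lower (36.4%), in 16 of 26 of those not called (61.5%) and in 50.4% of all promoters. Over all genes called higher or lower its shares were 56.3% and 57.0%. These shares describe letters and not binding.

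The clade counts below stand beside 8.07% of all tested genes higher and 6.41% lower, cover few genes each and were not tested. Clade III is a group of single-domain factors tied to salicylic acid, defence and leaf senescence. In it 4 of 5 tested members were higher and none lower, with a median log2 change of 1.43. The 4 include WRKY55, which passed the filter only through the treated libraries. WRKY53 (AT4G23810, chromosome 4, 12392370 to 12393982, TAIR10), which promotes leaf senescence, was at 7.42, 6.85 and 11.1 FPKM in controls 1, 2 and 3 and at 40.8, 35.6 and 39.8 FPKM in treated libraries 1, 2 and 3 (log2 change 2.1, SE 0.168, limma adjusted p = 0.000124). The treated values lay close together and far above every control. An opposite-strand gene covers 21.1% of the WRKY53 span, and since use of strand is not given in the sources used here, reads of both could be mixed. WRKY70 (AT3G56400, chromosome 3, 20908711 to 20910623), a node between salicylic acid and jasmonate signalling that restrains senescence, had 8.76, 9.32 and 8.66 FPKM in controls against 52.9, 20.8 and 37.9 FPKM in treated libraries (log2 change 1.85, SE 0.298, limma adjusted p = 0.00744). Its controls differed by under 1 FPKM, whereas the treated values ranged widely, lowest in library 2. For WRKY46, a factor with roles in drought and salicylic acid responses, the controls gave 8.59, 9.46 and 9.87 FPKM and the treated libraries 38.2, 23.2 and 21.7 FPKM (log2 change 1.43, SE 0.202, limma adjusted p = 0.00293), with treated library 1 the highest. WRKY55, a low-abundance member, went from 0.248, 0.456 and 0.251 FPKM to 1.6, 1.97 and 1.96 FPKM (log2 change 1.11, limma adjusted p = 0.00194). That rise rests on 24 reads in the 3 controls together and 140 in the treated libraries.

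WRKY30, induced by reactive oxygen in other settings, had 1.54, 1.04 and 2.83 FPKM in controls and 5.62, 3.75 and 3.14 FPKM in treated libraries. The groups did not overlap, and the log2 change of 0.90 missed the threshold (limma adjusted p = 0.0571). It was called by DESeq2 (adjusted p = 0.0148) and was listed as higher in the authors' deposited table (log2 fold change 1.2). Of the remaining clade III genes, 8 were under the filter. WRKY54, which lies next to WRKY55 on chromosome 2 (17000419 to 17002528) on the other strand, had means of 0.548 ± 0.230 and 0.955 ± 0.230 FPKM (SD, n = 3 each) and overlapping groups. WRKY41 had 0 reads in the controls and 13 in the treated libraries, and an opposite-strand gene covers 30.5% of its span. WRKY66 likewise had 0 and 18, none of them in treated library 3. WRKY38 and WRKY62, both known as brakes on basal defence, had 5 and 1 reads in controls and 5 and 5 in treated libraries. WRKY63 had a mean of 0.664 FPKM in controls, and 1.53, 0.0894 and 0.201 FPKM in treated libraries, a single high library. WRKY67 had 1 read in controls and 5 in treated libraries, and WRKY64 had 0 reads in all 6. A count of 0 allows up to 3 reads, or 0.129 to 0.154 FPKM for a gene of 1 kb by library, for counting error only.

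Clade IIa proteins pair with each other and temper defence and abscisic acid responses. All 3 members had treated values above every control, as did 19.0% of all tested genes. Of the 3, 2 passed the threshold. WRKY40 (AT1G80840, chromosome 1, 30383561 to 30385499) was at 9.72, 6.88 and 12.8 FPKM in controls and 52.2, 40.4 and 53.6 FPKM in treated libraries (log2 change 2.23, SE 0.210, limma adjusted p = 0.000399). The treated mean was 4.97 times the control mean. WRKY18 (AT4G31800, chromosome 4, 15382777 to 15385100) had 35.2, 23.7 and 40.3 FPKM in controls and 107.7, 51.0 and 76.1 FPKM in treated libraries (log2 change 1.19, SE 0.296, limma adjusted p = 0.0382). Its spread was wide in both groups, and treated library 2 lay close to control 3. The call for WRKY18 was lost without control 1, 2 or 3 or treated library 1 or 3, with adjusted p of 0.0523 to 0.102. WRKY60 was at 14.1, 11.4 and 10.6 FPKM in controls and 18.4, 16.5 and 15.01 FPKM in treated libraries, a log2 change of 0.44 with a limma adjusted p of 0.0619.

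**Figure D2:**
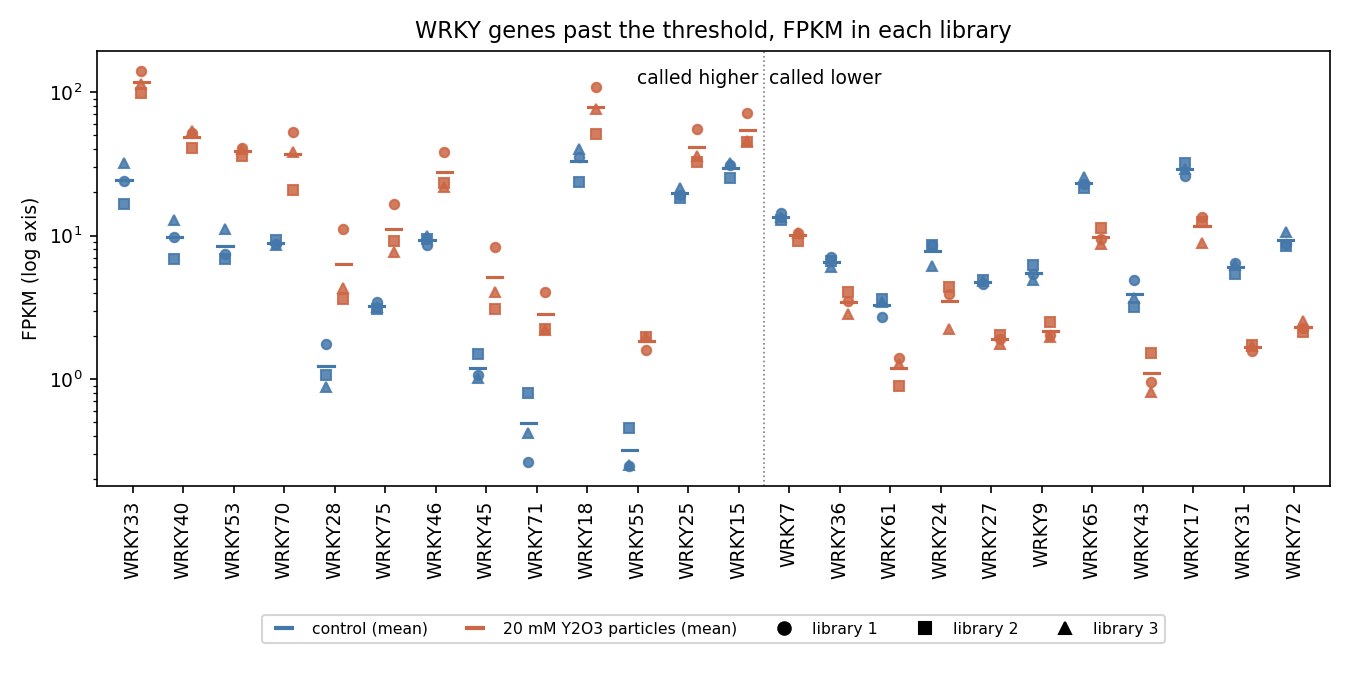
Points give FPKM on a log axis for each of the 24 called WRKY genes in every library, with controls in blue, treated in orange, marker shapes for library numbers and short lines for group means. Genes are ordered by log2 change, and in each of them the 3 treated points lie to one side of the 3 control points.

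In clade I, whose members are known from defence and heat as well as development, 2 of 10 tested genes rose and none fell (median log2 change 0.16). WRKY33 (AT2G38470, chromosome 2, 16108235 to 16110766), a substrate of MPK3 and MPK6 that drives synthesis of the phytoalexin camalexin, was at 24.1, 16.7 and 32.3 FPKM in controls and 141, 97.9 and 114 FPKM in treated libraries. Its log2 change was 2.26 (SE 0.237, limma adjusted p = 0.000817), the largest among tested members on the log2(FPKM + 1) scale, and it was the most abundant WRKY transcript in each treated library. WRKY33 made up 3.46 to 5.66% of the summed WRKY FPKM in controls and 14.1 to 15.03% in treated libraries, and opposite-strand genes cover 11.8% of its span. As a ratio of group means, the 4.84 of WRKY33 was below the 5.80, 5.68, 5.17 and 4.97 of WRKY55, WRKY71, WRKY28 and WRKY40. WRKY25, a relative that acts with WRKY33 in heat tolerance, went from 19.2, 18.4 and 21.4 FPKM to 55.5, 32.4 and 35.9 FPKM (log2 change 0.996, SE 0.192, limma adjusted p = 0.0118). Without control 1 its adjusted p was 0.0554. WRKY26, the other member of that heat-related trio, had means of 3.19 ± 1.04 and 4.24 ± 0.790 FPKM and overlapping groups.

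The other clade I genes that were tested gave no call. WRKY1 was at 18.6, 16.6 and 16.9 FPKM in controls and 19.1, 18.3 and 17.3 FPKM in treated libraries. WRKY3 had 18.1, 16.3 and 20.3 FPKM against 15.6, 16.5 and 21.9 FPKM, and WRKY4, its partner in resistance to necrotrophic fungi, 10.5, 7.96 and 8.99 against 12.4, 9.51 and 10.2 FPKM. These values overlapped, with log2 changes between -0.03 and 0.20. WRKY32 was at 10.9, 11.7 and 9.94 FPKM in controls and 12.0, 12.7 and 10.9 FPKM in treated libraries, and WRKY20 had means of 8.20 and 8.60 FPKM. WRKY2 and WRKY44, the latter known as TTG2 from trichome and seed coat development, had non-overlapping groups in opposite directions (means 3.79 and 5.12 FPKM for WRKY2, 4.503 and 3.14 FPKM for WRKY44) and adjusted p of 0.160 and 0.112. WRKY10, a regulator of seed size, had 0 reads in every library. The pollen factor WRKY34 had 6 reads in controls and 0 in treated libraries, and WRKY58 had 2 and 15.

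Clade IIc split in both directions, with 4 of 12 tested members higher and 2 lower. The 4 include WRKY71, which passed the filter only through the treated libraries. WRKY28, an activator of salicylic acid synthesis, went from 1.74, 1.06 and 0.888 FPKM to 11.1, 3.64 and 4.34 FPKM (log2 change 1.6, SE 0.360, limma adjusted p = 0.026). WRKY75 (AT5G13080, chromosome 5, 4149738 to 4151201), a regulator of phosphate starvation and senescence, went from 3.44, 3.08 and 3.18 FPKM to 16.7, 9.18 and 7.66 FPKM (log2 change 1.45, SE 0.246, limma adjusted p = 0.00723). Treated library 1 stood highest in both. WRKY45, an activator of phosphate uptake, had 1.06, 1.5 and 1.012 FPKM in controls and 8.31, 3.09 and 4.04 FPKM in treated libraries (log2 change 1.4, limma adjusted p = 0.0169). WRKY71, known from shoot branching and flowering, had 0.266, 0.801 and 0.422 FPKM in controls and 4.02, 2.24 and 2.2 FPKM in treated libraries (log2 change 1.33, limma adjusted p = 0.00566). Both again peaked in treated library 1. The call for WRKY28 was lost without control 1, 2 or 3 (adjusted p 0.0564 to 0.0862), and that for WRKY45 without control 1 or 3 (0.0718 and 0.0606).

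The members of clade IIc that fell were WRKY43 and WRKY24. WRKY43 was at 4.91, 3.17 and 3.7 FPKM in controls and 0.95, 1.53 and 0.817 FPKM in treated libraries (log2 change -1.23, SE 0.188, limma adjusted p = 0.00376). WRKY24 was at 8.65, 8.56 and 6.18 FPKM in controls and 3.91, 4.4 and 2.25 FPKM in treated libraries (log2 change -0.98, limma adjusted p = 0.019), and without control 1 or 2 its adjusted p was 0.0853 and 0.0731. WRKY56 also had lower treated values, 2.17, 2.21 and 1.96 FPKM against 5.04, 3.26 and 2.37 FPKM, but its controls varied and the limma adjusted p was 0.145. WRKY48, a negative regulator of defence against bacteria, gave 12.3, 11.9 and 17.8 FPKM in controls and 28.5, 17.3 and 14.5 FPKM in treated libraries, which overlapped. WRKY8, WRKY23, WRKY50 and WRKY57 overlapped too, with log2 changes of 0.38, -0.22, 0.17 and 0.12. Under the filter, WRKY59 had 5 reads in controls and 56 in treated libraries and was called in the fit without a filter and in the authors' deposited table (log2 fold change 3.49). WRKY51 had 17 and 68 reads with overlapping values. WRKY12 and WRKY13, known from stem development, had 10 and 59 reads in controls and 14 and 44 in treated libraries. WRKY49 had 27 and 12 reads, and WRKY68 had 0 in all 6 libraries.

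In clade IIb 5 of 7 tested members fell and none rose, with a median log2 change of -0.96. WRKY72 (AT5G15130, chromosome 5, 4904290 to 4907094), which contributes to basal resistance against nematodes and oomycetes, was at 8.77, 8.47 and 10.6 FPKM in controls and 2.26, 2.11 and 2.55 FPKM in treated libraries (log2 change -1.63, SE 0.134, limma adjusted p = 0.00014). That was the largest fall of the family among tested genes, to 0.249 of the control mean. WRKY31 was at 6.4, 5.37 and 6.21 FPKM in controls and 1.58, 1.73 and 1.69 FPKM in treated libraries (log2 change -1.39, SE 0.127, limma adjusted p = 0.000256). WRKY9, a regulator of suberin synthesis in roots, went from 5.38, 6.22 and 4.88 FPKM to 2.01, 2.48 and 1.98 FPKM (log2 change -1.04, limma adjusted p = 0.00206). The treated values of these 3 genes lay within a narrow band in each case. WRKY61 went from 2.72, 3.6 and 3.47 FPKM to 1.41, 0.895 and 1.28 FPKM (log2 change -0.96, limma adjusted p = 0.00551). WRKY36, known as a repressor of the light regulator HY5, went from 7.07, 6.63 and 6.05 FPKM to 3.48, 4.02 and 2.86 FPKM (log2 change -0.77, limma adjusted p = 0.00855). All 5 calls stood with any single library left out.

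The other tested clade IIb genes, WRKY6 and WRKY47, gave no call. WRKY6, a senescence factor that also represses the phosphate exporter gene PHO1, was at 17.9, 17.1 and 21.3 FPKM in controls and 34.9, 23.8 and 23.5 FPKM in treated libraries (log2 change 0.51, limma adjusted p = 0.0811; DESeq2 adjusted p = 0.0286). WRKY47 had 6.81, 6.67 and 9.59 FPKM against 11.5, 9.33 and 12.9 FPKM, with treated library 2 below control 3 and a limma adjusted p of 0.0837. WRKY42, a further repressor of PHO1, was under the filter with 120 reads in controls and 59 in treated libraries. Its treated values lay below every control, and it was called lower by limma and by edgeR with no filter.

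**Figure D3:**
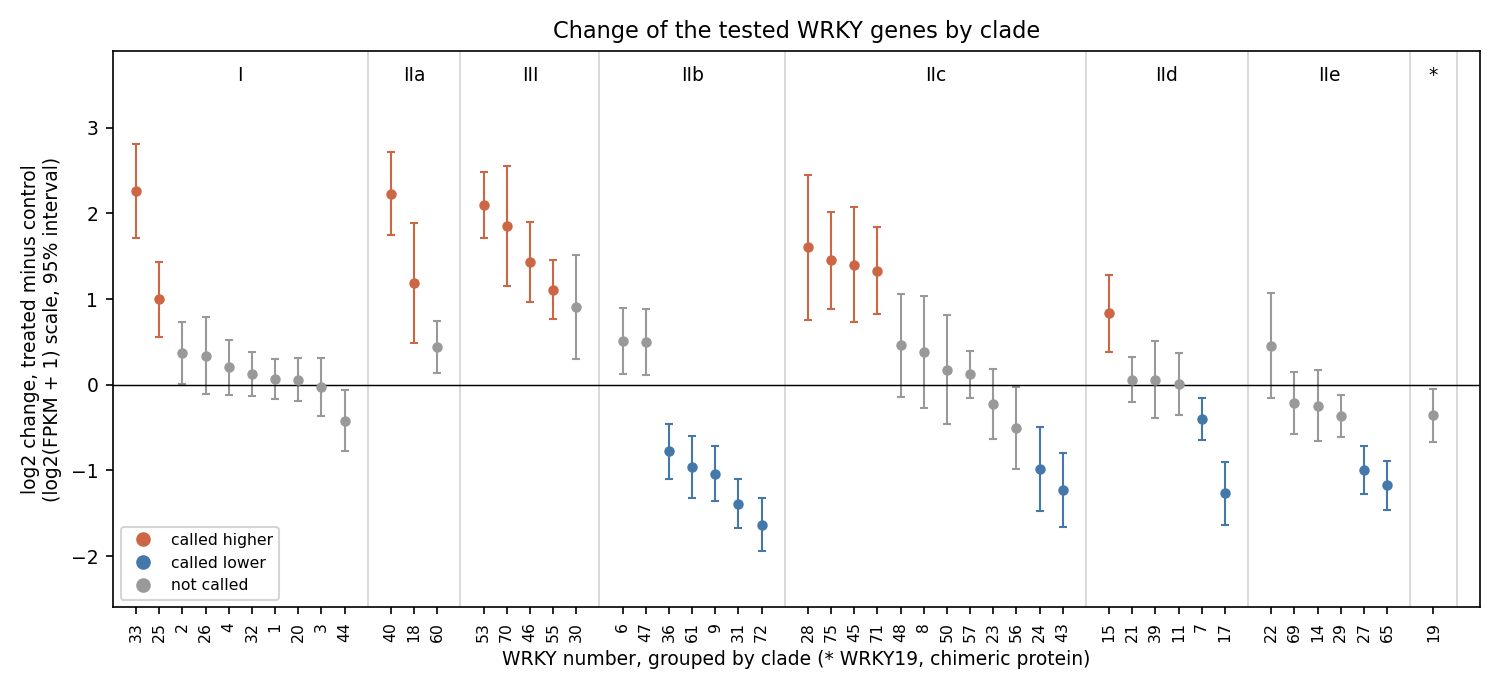
Points give the log2 change of the 50 tested WRKY genes with its 95% interval from limma, on the log2(FPKM + 1) scale, grouped by clade and coloured by call. Clades IIa and III lie above zero, 5 of the 7 clade IIb genes lie well below it, and clade IIc spans -1.23 to 1.6.

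Clade IId proteins bind calmodulin, and 1 of the 6 tested members rose and 2 fell. WRKY11 and WRKY17 act together as negative regulators of basal resistance. WRKY11 was at 43.8, 41.1 and 54.0 FPKM in controls and 49.4, 53.0 and 37.8 FPKM in treated libraries (log2 change 0.0087, limma adjusted p = 0.978). WRKY17 (AT2G24570, chromosome 2, 10437353 to 10439469) was at 26.2, 32.2 and 28.9 FPKM in controls and 13.5, 12.5 and 8.85 FPKM in treated libraries (log2 change -1.27, SE 0.160, limma adjusted p = 0.00147). WRKY17 went from the rank of 4 among the 70 control means to 18 among the treated means, and the difference between both changes was not tested. WRKY15, linked to oxidative and salt stress, rose from 31.1, 25.1 and 31.8 FPKM to 71.9, 44.6 and 45.7 FPKM (log2 change 0.83, SE 0.194, limma adjusted p = 0.0252). Without control 1, 2 or 3 the adjusted p of WRKY15 was 0.0566 to 0.0893. WRKY7 was lower at 10.4, 9.21 and 10.4 FPKM against 14.3, 12.9 and 13.4 FPKM in controls (log2 change -0.40, limma adjusted p = 0.0394), and that call was lost on leaving out any single library (adjusted p 0.0622 to 0.143). WRKY21 had 15.1, 16.8 and 16.8 FPKM in controls and 18.1, 14.9 and 18.0 FPKM in treated libraries, and WRKY39, a factor of heat responses, 13.7, 12.8 and 15.2 against 20.1, 11.1 and 13.6 FPKM. Both overlapped between the groups. WRKY74, under the filter, had 82 reads in controls and 20 in treated libraries and was listed as lower in the authors' deposited table (log2 fold change -2.05).

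In clade IIe 2 of 6 tested members fell and none rose. WRKY65 was at 22.7, 21.5 and 25.8 FPKM in controls and 9.44, 11.2 and 8.78 FPKM in treated libraries (log2 change -1.17, SE 0.125, limma adjusted p = 0.000572). WRKY27, a factor that hastens symptoms of bacterial wilt, was at 4.59, 4.88 and 4.81 FPKM in controls and 1.91, 2.02 and 1.75 FPKM in treated libraries (log2 change -0.99, SE 0.122, limma adjusted p = 0.00125). The groups were tight and far apart for both genes. WRKY22 and WRKY29, which act downstream of flagellin perception, did not pass the threshold. WRKY22 had 5.7, 4.96 and 7.29 FPKM in controls and 10.3, 5.19 and 11.2 FPKM in treated libraries, where library 2 was at control level (limma adjusted p = 0.297, and 0.013 without treated library 2). WRKY29 had 13.6, 13.7 and 12.9 FPKM against 10.8, 9.23 and 10.5 FPKM (log2 change -0.37, limma adjusted p = 0.053), and an opposite-strand gene covers 14.5% of its span. WRKY14 and WRKY69 overlapped, WRKY35 was under the filter with 95 and 114 reads, and opposite-strand genes cover 35.8% of the WRKY69 span. WRKY19, a chimera of a WRKY domain with disease-resistance and kinase parts, had means of 3.69 ± 0.433 and 2.66 ± 0.231 FPKM and a log2 change of -0.36 (limma adjusted p = 0.117; edgeR adjusted p = 0.0392).

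The authors' deposited table listed 24 of the 70 genes, 14 higher and 10 lower. Of these, 21 were also called here, WRKY59 and WRKY74 were under the filter and WRKY30 missed the threshold. The called genes that it did not list were WRKY7, WRKY15 and WRKY36, and every log2 fold change in it was above 1 in size.

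**Figure D4:**
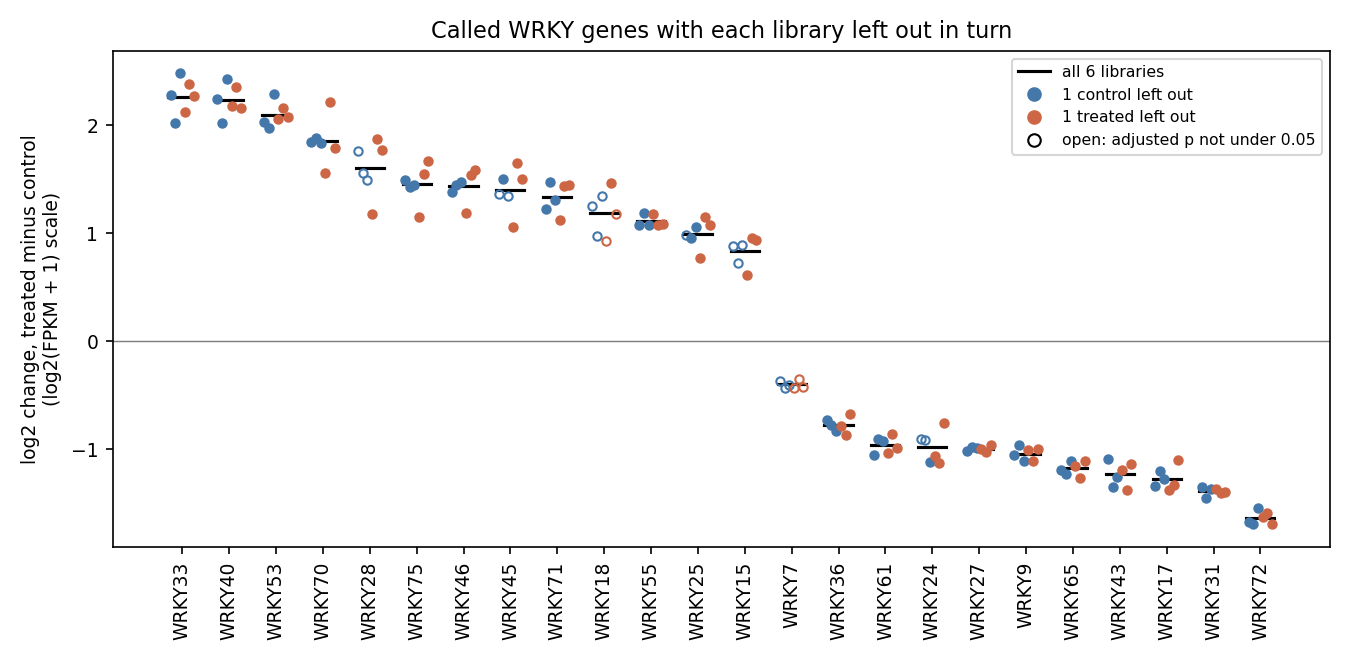
For the 24 called WRKY genes, points give the log2 change on the log2(FPKM + 1) scale with 1 control (blue) or 1 treated library (orange) left out, the black line gives the value from all 6, and open points mark an adjusted p not under 0.05. No gene crosses zero, and open points occur in WRKY28, WRKY45, WRKY18, WRKY25, WRKY15, WRKY7 and WRKY24.

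Genes that act before or with WRKY factors were read from lists. The MAP kinase cascade phosphorylates WRKY proteins. Of its 12 members 4 rose (33.3%, against 8.07% of all tested genes) and none fell (median log2 change 0.17). MPK3, the kinase that acts on WRKY33, was at 29.0, 28.8 and 37.1 FPKM in controls and 129, 86.7 and 126 FPKM in treated libraries (log2 change 1.8, SE 0.176, limma adjusted p = 0.000362). Its partner MPK6 was at 27.96, 31.9 and 33.5 FPKM in controls and 40.2, 35.3 and 38.8 FPKM in treated libraries (log2 change 0.29, limma adjusted p = 0.131), and MPK4 and MEKK1 had log2 changes of 0.14 and 0.17. MKK9, MPK11 and MKK1 rose by 1.21, 0.97 and 0.55 (limma adjusted p = 0.0452, 0.0217 and 0.0214), but these calls were lost in 8, 3 and 4 alternatives, mostly on leaving out a library, with adjusted p of up to 0.118, 0.0907 and 0.0826. MPK11, with a control mean of 0.879 FPKM, passed the filter only through the treated libraries. VQ proteins bind WRKY domains, and 4 of 7 tested members rose (57.1%, against 8.07% of all tested genes) and none fell (median 0.60). VQ10 was at 2.16, 1.83 and 1.08 FPKM in controls and 13.9, 10.4 and 8.69 FPKM in treated libraries (log2 change 2.16, SE 0.209, limma adjusted p = 0.000348). SIB1, which binds WRKY33, went from 3.37, 1.85 and 3.24 FPKM to 10.6, 8.83 and 6.35 FPKM (log2 change 1.33, limma adjusted p = 0.00636). VQ9 rose by 0.70 and MKS1, the link between MPK4 and WRKY33, by 0.60 (limma adjusted p = 0.0239, and 0.0582 to 0.0844 without control 1, 2 or 3 or treated library 1).

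Among 22 genes reported in the literature as WRKY targets, 16 were tested. Of these 7 rose (43.8%, against 8.07% of all tested genes) and 2 fell (12.5%, against 6.41%), with a median log2 change of 0.60. Ethylene synthesis genes that WRKY33 is known to activate were among them: ACS6 went from 25.6, 15.8 and 33.1 FPKM to 57.7, 79.8 and 79.9 FPKM (log2 change 1.55, limma adjusted p = 0.00855). ACS2 rose by 1.44 (limma adjusted p = 0.028), a call lost without control 1, 2 or 3 or treated library 2 (adjusted p 0.0592 to 0.0959). PBS3, of salicylic acid synthesis, rose by 1.49, and CYP81F2, of indole glucosinolate modification, by 1.43 (limma adjusted p = 0.00271 and 0.00161). ACS2 and PBS3 passed the filter only through the treated libraries, since their control means were 0.695 and 0.725 FPKM. The camalexin gene PAD3 was at 9.93, 11.2 and 11.3 FPKM in controls and 38.6, 23.9 and 15.3 FPKM in treated libraries (log2 change 1.1, limma adjusted p = 0.0475, lost in 6 alternatives at up to 0.139), while CYP71A13 of the same pathway had a log2 change of 0.42 (limma adjusted p = 0.498). OM66 and NPR1 rose by 1.27 and 0.53 (limma adjusted p = 0.00472 and 0.0244), the latter lost on leaving out 5 of the 6 libraries (adjusted p up to 0.1004). ICS1 and EDS1, of salicylic acid synthesis and signalling, had log2 changes of 0.60 and 0.61 and limma adjusted p of 0.0578 and 0.0529. PHT1;1, the phosphate transporter gene that WRKY45 and WRKY75 activate, went from 158, 183 and 182 FPKM to 25.5, 34.7 and 38.3 FPKM (log2 change -2.39, limma adjusted p = 4.47e-05). PHO1 fell by 0.57 (limma adjusted p = 0.0256), lost on leaving out 5 of the 6 libraries (adjusted p up to 0.1001). Both phosphate genes are known from roots, and the root markers fell beside them (median log2 change -1.72). A link between these falls was not tested. PR1 and SAG12, late markers of salicylic acid and senescence, were at 0 reads in each library.

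**Figure D5:**
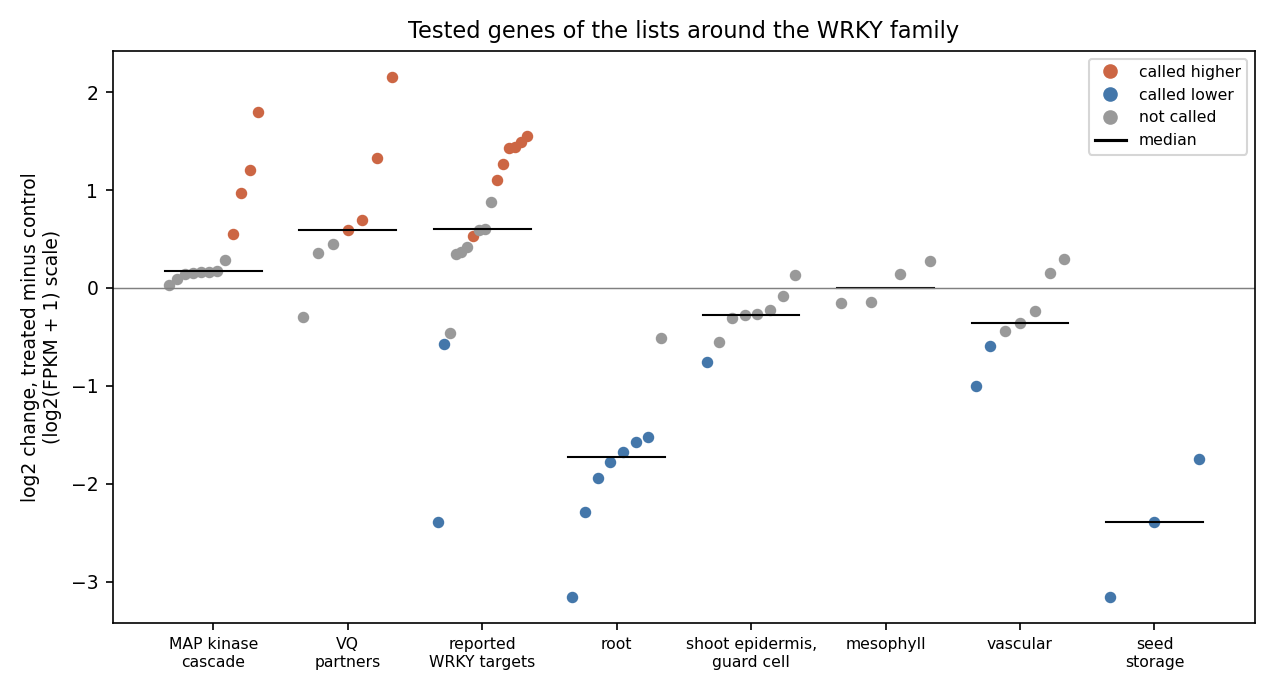
Points give the log2 change on the log2(FPKM + 1) scale of each tested gene in 8 lists, coloured by call, with black lines at the list medians. The lists of the MAP kinase cascade and VQ partners hold calls in the upward direction alone, the reported WRKY targets in both, and the root list has a median of -1.72.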

How the data were processed

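RNA of 3 control and 3 treated samples was sequenced, with groups read from the treatment given for each sample. HISAT2 2.0.5 and TAIR10 are named per the submitters' processing notes, and the counting method, annotation release and use of strand were not found in the labels or headers. The authors deposited FPKM values for 32948 genes. They also deposited a comparison table with a signal (reads of each library divided by its size factor), log2 fold changes and p-values, in which every adjusted p is under 0.05.

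FPKM times gene length was a whole multiple of 1 step per library for 100% of values above 0 (within 0.01), so reads were recovered for edgeR and DESeq2, used as alternatives. Median-of-ratios factors computed on the FPKM were 1.003 in all 6 libraries alike, as in values already divided by such factors, a step that no label states. That scaling alternative is therefore no independent test. Genes with a mean of at least 1 FPKM were tested on log2(FPKM + 1) with limma 3.58.1 in R 4.3.3 (trend and robust, 2-sided, treatment as the only term, Benjamini-Hochberg over 18614 genes). edgeR 4.0.16 (quasi-likelihood) called 2970 genes on the recovered reads, against 2696 by limma, and DESeq2 1.42.0 called 3624.

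Members, lists, clades and tests were chosen with earlier results of these data known. Each library's values are given for members called, or with a mean of at least 10 FPKM in either group, and most others are given by mean, reads or change. In the lists of the MAP kinase cascade, VQ partners and reported targets the 4 called members with the largest change are named. Of the root markers called, only CASP1 is named. Further list genes (MPK4, MPK6, MEKK1, CYP71A13, PAD3, ICS1, EDS1 and others) were named after their values were seen. All 70 WRKY spans matched the TAIR10.1 reference exactly, and all 77 list genes were found by ID and name. Library pairs within groups differed by more than sampling noise (chi-square per degree of freedom 12.3 to 34.9). Proteins were not printed.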

Additional observations from a re-analysis of the deposited data

How the results depend on the processing

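Of the 24 called WRKY genes, 17 stayed called in the same direction under each of the 19 alternatives that could test them. The other 7 were lost on leaving out a library and under no other alternative, and none changed sign. Leaving out each library in turn gave 8 to 15 WRKY genes higher and 9 to 10 lower, and 697 to 1950 genes higher and 696 to 1467 lower over the whole table. The lowest of these, 8 WRKY genes and 697 genes higher and 696 lower, came without control 1. The highest over the whole table, 1950 higher and 1467 lower, came without treated library 2. Each of these fits lacked a single library, and the cause of the differences was not tested. All genes called higher were 777 without control 2 and 914 without treated library 1. A minimum mean of 5 FPKM left 31 WRKY genes and 13416 genes over the whole table to test. Of these, 9 WRKY genes were higher and 6 lower, and 1149 of all genes were higher and 676 lower. edgeR called 13 WRKY genes higher and 12 lower, DESeq2 16 and 12, and no filter gave 14 and 13.

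Among the 26 genes not called, 7 were called under some alternative and 4 changed sign. WRKY11 had log2 changes of -0.00079 with edgeR, -0.0040 with edgeR and the replicate block, and -0.087 to 0.15 with a library left out. With a library left out WRKY3 ranged from -0.17 to 0.063 (0.047 and 0.025 in between), WRKY39 from -0.16 to 0.24 and WRKY50 from -0.16 to 0.40. The cause was not tested.

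The labels give control and treated libraries the same numbers, and whether these mark pairs was not tested. Deviations from the group means correlated at 0.0861, 0.383 and 0.101 between libraries numbered 1, 2 and 3. The 0.383 was the highest value of any control with any treated library. Among differently numbered libraries only control 3 with treated library 1 gave a positive value (0.302), and the lowest was -0.379 (control 2 with treated library 1). The replicate block gave 15 WRKY genes higher and 11 lower, adding WRKY47 and WRKY60, and 1840 and 1416 over the whole table. With edgeR and the block there were 15 and 11. Among members with few reads, the log2 change of WRKY71 ranged from 1.12 to 2.50 over the alternatives and that of WRKY55 from 1.07 to 2.54. These alternatives include other pseudocounts, other tools and left-out libraries, and their parts in the range were not separated.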
